A study of Mus musculus and Ictidomys tridecemlineatus with 36 samples.

Results

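The 9 genes described here encode the proteins that carry the light response of rod photoreceptors from the activated visual pigment to the membrane current. They are *Gnat1* and *Gngt1* for transducin, *Pde6a*, *Pde6b*, and *Pde6g* for the phosphodiesterase, *Cnga1* and *Cngb1* for the cyclic nucleotide-gated channel, and *Sag* and *Rcvrn* for shut-off of the signal. They were listed by name for their role, 9 of 21938 protein-coding genes in GENCODE release M21, and the rule uses no measured value. For each gene, peaks of 5 CUT&RUN targets were taken from P2 mouse retina if they lay within 1 kb of an annotated transcription start site (TSS) or in the gene body plus 20 kb on each side. These windows held 15 H3K4me3, 29 H3K27ac, 68 H3K4me1, 32 Otx2, and 5 Neurod1 peaks.

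CUT&RUN maps a protein or a histone mark by cutting chromatin with a nuclease tethered to an antibody and sequencing what is released. The study profiled retinas of the thirteen-lined ground squirrel at P5 and of the mouse at P2, in 36 libraries, of which the 20 mouse libraries bear on these genes. The labels give no genotype, strain, or treatment for the mice. The nuclei came from 2 biological replicates that each pooled the retinas of 3 individuals, with 385000 nuclei per reaction. There were 2 libraries each for H3K4me3, H3K27ac, H3K4me1, and the IgG control, 4 for Neurod1, and 8 for Otx2, the last with antibodies from R&D Systems and Atlas Antibodies in 4 libraries each.

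The authors called peaks once per target from all its libraries against IgG, so each peak has 1 fold enrichment over IgG and 1 −log10 q-value and no spread between replicates. No difference below was tested, and the read depth behind each peak is unknown. Fold enrichments of different antibodies are not on a common scale, so a peak is placed within its own list, as the share of that list's peaks with at least its fold. In whole retina, a weak signal in every nucleus cannot be told apart from a strong signal in a few. Only 1 stage was profiled, so the order in which factors and acetylation arrive at a gene was not observed, and the data give only which genes had a factor peak without an H3K27ac peak at P2.

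In the rod outer segment, light-activated pigment makes transducin exchange its nucleotide, transducin relieves the phosphodiesterase of its inhibitory subunit, cyclic GMP falls, and the channel closes. Arrestin and recoverin act on the shut-off of the pigment. In the newborn mouse retina most rods have only just been born or are still to be born from late progenitors. Otx2 is the homeodomain factor that directs cells to the photoreceptor and bipolar fates, and it shares its binding motif with Crx, which activates photoreceptor genes. Neurod1 is a basic helix-loop-helix factor of photoreceptor precursors. H3K4me3 marks active or prepared promoters, H3K4me1 marks enhancers and flanks of promoters, and H3K27ac marks promoters and enhancers in use.

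The tissue label was checked against marker genes. All 4 photoreceptor precursor genes (*Otx2*, *Crx*, *Neurod1*, and *Prdm1*) and the 4 late progenitor genes reported here (*Rax*, *Lhx2*, *Hes1*, and *Notch1*) had an H3K4me3 peak within 1 kb of a TSS, with folds of 40.9 to 64.9 and 27.1 to 159. Among pigment epithelium genes 1 of 5 had one (*Pmel*, at 11.3-fold). None of the 4 liver genes did. H3K27ac was within 1 kb of a TSS at all 4 photoreceptor precursor genes and at 3 of the 4 late progenitor genes. It was at none of the 5 pigment epithelium genes or the 4 liver genes.

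Otx2 was present at the start of 6 of the 9 genes, and H3K27ac at 2. *Sag* and *Cnga1* carried Otx2 peaks of about 12-fold and no H3K27ac peak, *Gnat1*, *Pde6g*, and *Cngb1* carried Otx2 peaks of 4.23- to 5.03-fold and no H3K27ac peak, and *Gngt1* was the only gene with Otx2 and H3K27ac together within 1 kb of a TSS. *Pde6b* had H3K27ac with its summit in an intron, and an Otx2 peak just outside the 1 kb limit. Within 1 kb of a TSS, *Pde6a* had H3K4me1 alone, and *Rcvrn* had no peak of any target. Genes with Otx2 or Neurod1 and without H3K27ac within 1 kb of a TSS thus numbered 5 of 9, against 30.8% of all protein-coding genes. With only 9 genes, this gap rests on few of them and was not tested.

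**Figure D1:**
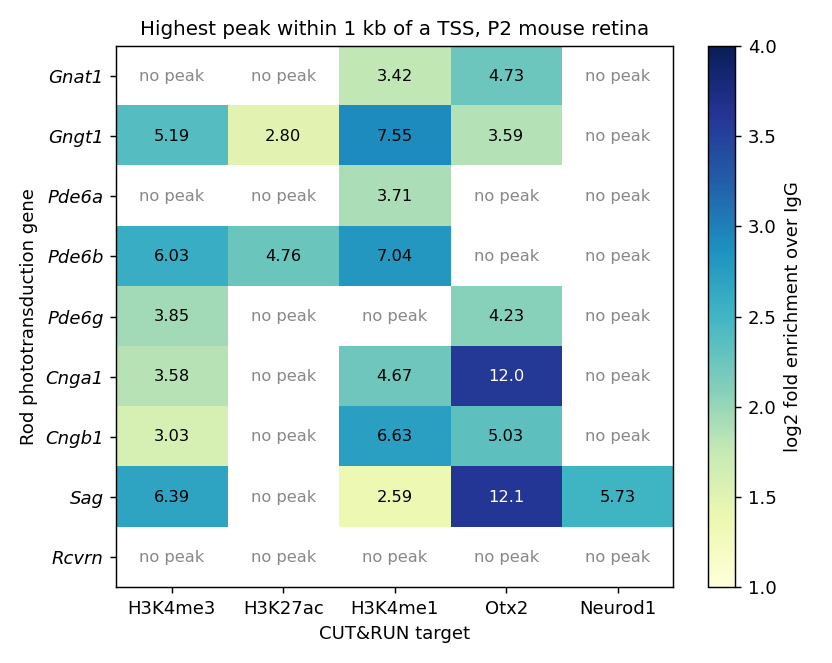
Fold enrichment over IgG of the highest peak within 1 kb of any TSS, for the 9 genes (rows) and 5 targets (columns), with color giving the log2 fold and white cells having no peak. The Otx2 column is filled in 6 rows, and the H3K27ac column only for *Gngt1* (2.80) and *Pde6b* (4.76).

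For each target the count was set beside the share of all protein-coding genes with such a peak. Otx2 was found at 6 of 9 starts, against 51.0% of genes. H3K27ac was found at 2 of 9, against 22.6%. H3K4me3 stood at 6 of 9 starts, against 56.0% of genes, and H3K4me1 at 7 of 9, against 63.6%. Neurod1 stood at 1 of 9, against 5.76%. With so few genes, none of these 5 counts lies far from its background, that of Otx2 included. Of the 6 rod genes with Otx2 at a start 5 had no H3K27ac there, against 60.1% of all genes with Otx2 at a start. This count, too, is of few genes and does not set them apart. The H3K27ac count was 1 of 9 with a limit of 500 bp, with a −log10 q of at least 5, with summits in place of overlaps, or with equal numbers of peaks, and the H3K4me1 count was 1 of 9 with equal numbers of peaks.

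The starts of *Sag* and *Cnga1* held the strongest Otx2 peaks among the 9. *Sag* encodes rod arrestin, which binds phosphorylated pigment and stops its signaling. Its Otx2 peak at chr1:87803250-87804231 (GRCm38) reached 12.1-fold with a −log10 q of 70.5, and only 1.24% of Otx2 peaks had at least this fold. The summit lay 1 bp before the annotated 5′ end of the gene. A Neurod1 peak of 5.73-fold at chr1:87803586-87804087 had its summit 75 bp inside the gene, in a non-coding exon or untranslated region (UTR), and *Sag* was the only one of the 9 genes with Neurod1 at its start. H3K4me3 reached 6.39-fold there, with its summit 715 bp into the gene in an intron, and H3K4me1 was weak, at 2.57- and 2.59-fold. The nearest H3K27ac peak was 9.76 kb from the Otx2 peak. The same set of 4 targets without H3K27ac was found at 1.78% of protein-coding genes.

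The 250 bases before the *Sag* start, chr1:87803430-87803679 on the plus strand of GRCm38, are shown because the highest Otx2 fold of the 9 starts falls on them. Capitals mark the core of the Otx2 and Crx motif, TAATCC, or of Maf-family sites such as that of the rod factor Nrl, TGCTGA, on either strand, so that TAATCC read from the other strand appears as GGATTA.
Sag: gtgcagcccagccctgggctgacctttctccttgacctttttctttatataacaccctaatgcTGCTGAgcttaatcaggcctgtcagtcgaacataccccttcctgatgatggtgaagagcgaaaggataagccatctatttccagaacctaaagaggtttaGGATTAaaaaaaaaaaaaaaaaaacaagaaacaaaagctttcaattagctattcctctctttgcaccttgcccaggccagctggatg
The GGATTA begins 87 bases before the start and lies 83 bp from the Otx2 summit. A further TAATCC lies 88 bp from the summit on its other side, inside the gene. The TGCTGA begins 187 bases before the start.

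*Cnga1* encodes the channel subunit that forms the cyclic GMP-gated pore. Its Otx2 peak at chr5:72643390-72644157 reached 12-fold with a −log10 q of 71.7, a fold that 1.28% of Otx2 peaks had. The summit lay 309 bp inside the outermost annotated start, in a non-coding exon or UTR, and 1214 bp before the start that RefSeq gives. H3K4me1 covered the region at 4.67-fold (chr5:72642274-72644906), and a narrow H3K4me3 peak of 3.58-fold and 248 bp stood near the inner starts. No H3K27ac peak lay in the gene body plus 20 kb, and the nearest was 130374 bp from the Otx2 peak. *Cnga1* was the only one of the 9 genes with Otx2 at its start and no H3K27ac anywhere in its window.

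Since the annotated exon covers the *Cnga1* peak, only the sites of 24 bases around TAATCC are shown, on the minus strand of GRCm38 on which the gene lies. The peak held a pair of them, the nearer beginning 100 bp and the farther 296 bp downstream of the summit, and a further site begins 228 bases before the RefSeq start.
Cnga1 nearer site in the peak, chr5:72643852-72643875: ctttaaataGGATTAtaaagactt
Cnga1 farther site in the peak, chr5:72643656-72643679: ctacccctaGGATTActgtcggtt
Cnga1 site before the RefSeq start, chr5:72642966-72642989: gtctcatttTAATCCtaatgataa

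Among all genes with Otx2 at a start, 1.23% had a fold of at least that of *Sag* and 1.26% of at least that of *Cnga1*. At a limit of 12-fold, set from the folds of *Sag* and *Cnga1*, 142 protein-coding genes qualified. Of these, 40.8% had no H3K27ac within 1 kb of a TSS, against 60.1% of all genes with Otx2 at a start. Strong Otx2 without the acetyl mark was thus not rare, but absence of the mark was less frequent there than at Otx2 starts in general.

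*Cngb1* encodes the other channel subunit, which the rod channel needs for its normal gating and for transport to the outer segment. Otx2 reached 5.03-fold at chr8:95306429-95306936, with a −log10 q of 17.0 and a summit 236 bp before the gene, in intergenic sequence. H3K4me1 spanned the start at 6.63-fold, with its summit 230 bp before it. H3K4me3 was at 3.03-fold, 488 bp inside the gene, and 99.0% of genes with H3K4me3 at a start had a fold at least as high. The nearest H3K27ac peak was 17.8 kb from the Otx2 peak. A further H3K4me1 peak of 2.85-fold lay near an internal start. *Cnga1* and *Cngb1* shared the pattern of H3K4me3, H3K4me1, and Otx2 without H3K27ac or Neurod1 within 1 kb of a TSS. It is a common one, found at 24.1% of protein-coding genes.

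The 250 bases before the *Cngb1* start, chr8:95306586-95306835 on the minus strand, are shown because a pair of TAATCC matches falls in them.
Cngb1: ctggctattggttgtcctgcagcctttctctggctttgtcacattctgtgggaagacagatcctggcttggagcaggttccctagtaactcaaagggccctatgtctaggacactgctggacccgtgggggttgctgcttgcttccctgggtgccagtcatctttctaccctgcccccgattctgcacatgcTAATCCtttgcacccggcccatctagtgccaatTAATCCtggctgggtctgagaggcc
These matches begin 58 and 25 bases before the start and lie 180 and 213 bp from the Otx2 summit. Both are inside the peak.

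*Gnat1* encodes the rod transducin α-subunit, which carries the signal from pigment to phosphodiesterase. It had 4 Otx2 peaks within 1 kb of a TSS, all inside the gene body. Their folds were 4.73, 2.68, 3.20, and 2.38 at 1312, 2247, 3746, and 4174 bp from the 5′ start, and the strongest, chr9:107678317-107678714, had a −log10 q of 13.4. These peaks were counted through the starts of shorter transcripts that the annotation places inside the gene. Of its 7 annotated starts, 1 belongs to a protein-coding transcript, and the strongest peak ended 998 bp from it, just within the limit. The 5′ start itself carried only a weak H3K4me1 peak, of 2.91-fold and with its summit 264 bp before the gene. A broader H3K4me1 peak of 3.42-fold lay under the inner Otx2 peaks, and neither H3K4me3 nor H3K27ac was within 1 kb of any start. Distances from the Otx2 peaks to the nearest H3K27ac peak ran from 4.45 to 7.39 kb. H3K4me1 and Otx2 without the other 3 targets was found at 1.60% of protein-coding genes.

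*Pde6g* encodes the inhibitory γ-subunit of the phosphodiesterase. It had Otx2 peaks of 4.23-fold (chr11:120451960-120452931) and 2.49-fold (chr11:120453126-120453380), both in an intron, with summits 843 and 361 bp from the 5′ start. The −log10 q was 15.1 for the stronger and 2.12 for the weaker, the last not far above the authors' threshold. H3K4me3 was at 3.85-fold and overlapped the stronger Otx2 peak. *Pde6g* had no H3K4me1 peak within 1 kb of a TSS, and H3K4me3 with Otx2 alone was the pattern at 2.59% of protein-coding genes. The nearest H3K27ac peak was 4.16 kb from the weaker Otx2 peak, at the shared start of the neighbors *Ccdc137* and *Oxld1*.

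*Gngt1* encodes the rod transducin γ-subunit and was the gene whose start held both Otx2 and H3K27ac. Its Otx2 peak at chr6:3993738-3994197 was of 3.59-fold with a −log10 q of 4.51 and had its summit 258 bp inside the gene, in a non-coding exon or UTR. The H3K27ac peak was at the low end of its list. It was 319 bp wide, of 2.80-fold with a −log10 q of 1.83, and 80.7% of H3K27ac peaks had at least this fold. H3K4me1 reached 7.55-fold and H3K4me3 5.19-fold. All of these marks with Otx2 and without Neurod1 were found at 15.7% of protein-coding genes. With the H3K27ac, H3K4me1, and Otx2 lists reduced to equal numbers of peaks, the acetyl peak of *Gngt1* dropped out and genes with a factor and no H3K27ac at the start numbered 6 of 9.

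The TAATCC of the *Gngt1* start, on the other strand of the 24 bases below, begins 44 bases before the RefSeq start and lies 83 bp from the Otx2 summit. This RefSeq start lies inside the GENCODE gene. All 24 bases are thus in an annotated exon and not upstream of the gene.
Gngt1 start site, chr6:3993955-3993978, plus strand: tattaggggGGATTAtgaagaagc

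*Pde6b* encodes the catalytic β-subunit of the phosphodiesterase and had the highest H3K27ac fold within 1 kb of a TSS among the 9. H3K27ac was at 4.76-fold with a −log10 q of 10.9 (chr5:108389071-108389861), a fold that 12.6% of H3K27ac peaks had and that 79.1% of acetylated starts did not exceed. This peak began 680 bp from the protein-coding start and had its summit 1308 bp inside the gene, in an intron. It no longer counted at a limit of 500 bp or with summits in place of overlaps. H3K4me3 was at 6.03-fold and H3K4me1 at 7.04-fold, the latter over 5135 bp. All of these marks without either factor within 1 kb of a TSS were found at 0.966% of protein-coding genes. The Otx2 peak, chr5:108389433-108390222, reached 5.24-fold with a −log10 q of 20.6, had its summit 1373 bp inside the gene in an intron, and overlapped all 3 mark peaks. It lay outside the 1 kb limit, and at a limit of 2 kb *Pde6b* joined the genes with Otx2, which then numbered 7 of 9.

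The 300 bases around the summit of this intronic peak, chr5:108389615-108389914 on the plus strand, are shown because they are the acetylated Otx2 site nearest to the *Pde6b* start.
Pde6b intronic peak: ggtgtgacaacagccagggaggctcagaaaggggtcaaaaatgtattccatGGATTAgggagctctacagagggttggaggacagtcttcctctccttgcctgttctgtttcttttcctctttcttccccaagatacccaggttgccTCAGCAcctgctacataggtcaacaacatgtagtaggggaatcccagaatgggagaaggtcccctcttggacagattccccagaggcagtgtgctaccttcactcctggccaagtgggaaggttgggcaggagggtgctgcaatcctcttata
The GGATTA lies 95 bp from the summit, and TCAGCA, which is TGCTGA on the other strand, lies at it. The 250 bases before the RefSeq start, chr5:108388123-108388372, hold no TAATCC but a TGCTGA that begins 8 bases before the start.
Pde6b start: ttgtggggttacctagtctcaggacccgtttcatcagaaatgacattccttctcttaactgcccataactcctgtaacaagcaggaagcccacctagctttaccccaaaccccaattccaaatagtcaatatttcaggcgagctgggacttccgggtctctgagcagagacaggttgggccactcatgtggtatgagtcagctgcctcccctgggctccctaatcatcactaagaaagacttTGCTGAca

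*Pde6a*, the catalytic α-subunit, and *Rcvrn*, the calcium-binding inhibitor of the kinase that phosphorylates the pigment, had no factor peak at a start. *Pde6a* carried H3K4me1 of 3.71-fold at chr18:61220141-61221175, 32 bp from the start, and nothing else, a pattern found at 8.75% of protein-coding genes. *Rcvrn* had none of the 5 targets within 1 kb of its TSS, as had 31.3% of protein-coding genes, and no peak of any target in its gene body (chr11:67695326-67703333).

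H3K4me3 was weak at all the starts that had it. The 6 genes ran from 3.03-fold (*Cngb1*) to 6.39-fold (*Sag*) with a median of 4.52, while the median over the 12289 protein-coding genes with H3K4me3 at a start was 17.5. Only 13.2% of those genes were at or below the highest of the 6. The same was seen against genes that had Otx2 as well, where 8.48% of 10623 genes were at or below that level. At a −log10 q of at least 5, 3 genes kept their H3K4me3 peak, namely *Gngt1*, *Pde6b*, and *Sag*, while the genes with a factor and no H3K27ac were the same 5. Otx2 did not show this, with a median of 4.88 over the 6 genes and 3.99 over all genes with Otx2 at a start.

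**Figure D2:**
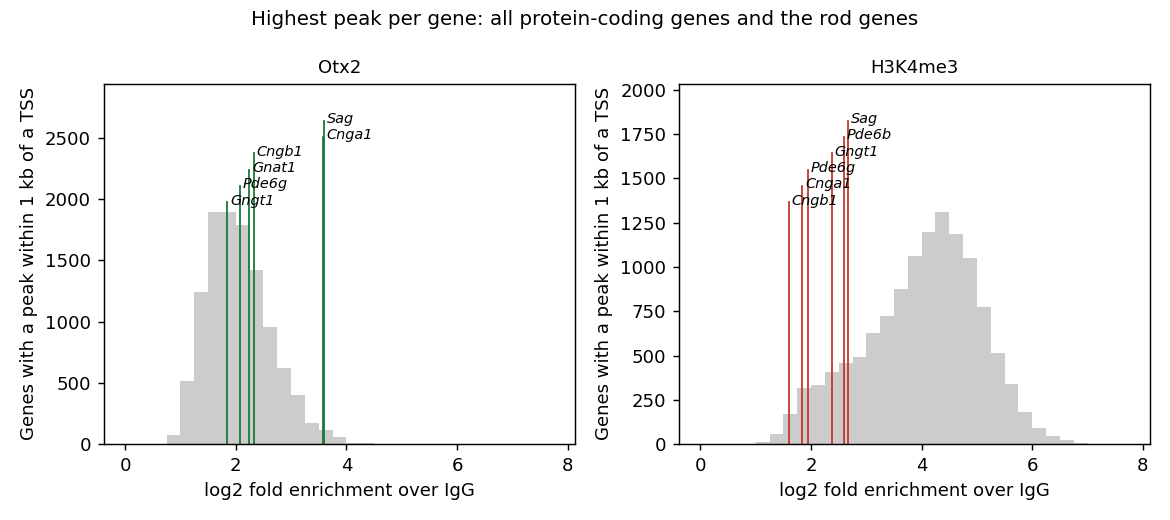
Histograms of log2 fold enrichment over IgG of the highest peak within 1 kb of a TSS, one value per protein-coding gene with such a peak (gray; y axis, number of genes), for Otx2 (left) and H3K4me3 (right), with the rod genes as vertical lines. *Sag* and *Cnga1* lie in the upper tail for Otx2, and all 6 genes with H3K4me3 lie in the lower tail.

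Sequence features of the starts were taken from RefSeq promoters of 300 bases, 250 before and 50 after the start (GRCm38.p6), of which the table held 5 of the 9 genes (*Gngt1*, *Pde6b*, *Cnga1*, *Cngb1*, and *Sag*). These promoters held 3 CpG dinucleotides in *Sag* and 4 in each of the others, against a median of 7 over 32851 promoters. Such counts were common, since 31.4% of promoters had at most 3 and 38.0% at most 4. TAATCC on either strand was in 4 of the 5, against 7.06% of all promoters. TGCTGA was in 2, *Sag* and *Pde6b*, against 19.5%, and CAGATG, an E-box bound by Neurod1, was in *Cngb1* only, against 17.2%. A match is a description of the letters, not evidence of binding.

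Near Otx2 summits, TAATCC within 150 bp was found at 9 of the 32 peaks in the windows, or 28.1%, and at 5 of the 10 peaks at starts, against 18.3% of all Otx2 peaks. More than 1 of these 5 was in *Gnat1*. Shares of all Otx2 peaks here include peaks far from any TSS, and none was computed for peaks at starts alone. No match lay wholly within 50 bp of a summit at any of the 32. Within 250 bp, a distance chosen after the data had been seen, matches stood at 7 of the 10 peaks at starts, at least 1 for each of the 6 genes, and at 28.6% of all Otx2 peaks. For Neurod1, CAGATG stood within 150 bp at 3 of the 5 summits in the windows and at 52.3% of all Neurod1 summits, and the *Sag* start was among those without it.

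In the wider windows all 9 genes had Otx2, against 69.9% of protein-coding genes, and 3 had Neurod1, against 19.4%. H3K27ac was in 7 of 9 windows, against 53.7%, H3K4me3 in 8, against 66.6%, and H3K4me1 in all 9, against 81.2%. The median window of the 9 genes was 80580 bp, against 57425 bp over all genes, though those of *Gnat1*, *Gngt1*, *Pde6g*, and *Rcvrn* were shorter than the latter. Per 100 kb the median was 4.58 Otx2 peaks against 1.86 over all genes, and 2.18 H3K27ac peaks against 1.06. It was also higher for H3K4me3 (2.21 against 1.35) and H3K4me1 (9.82 against 6.16), and 0 in both for Neurod1. Only *Cnga1* and *Pde6a* had a factor and no H3K27ac anywhere in the window, 2 of 9, against 21.4% of genes. In the gene body alone these were 4, *Cnga1*, *Gnat1*, *Pde6g*, and *Sag*, and without peaks at other genes' starts they were *Cnga1* and *Pde6g*. The single Otx2 peak in the *Pde6a* window, of 3.31-fold and 8746 bp before the gene, lay at the start of *Slc26a2* together with H3K4me3.

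**Figure D3:**
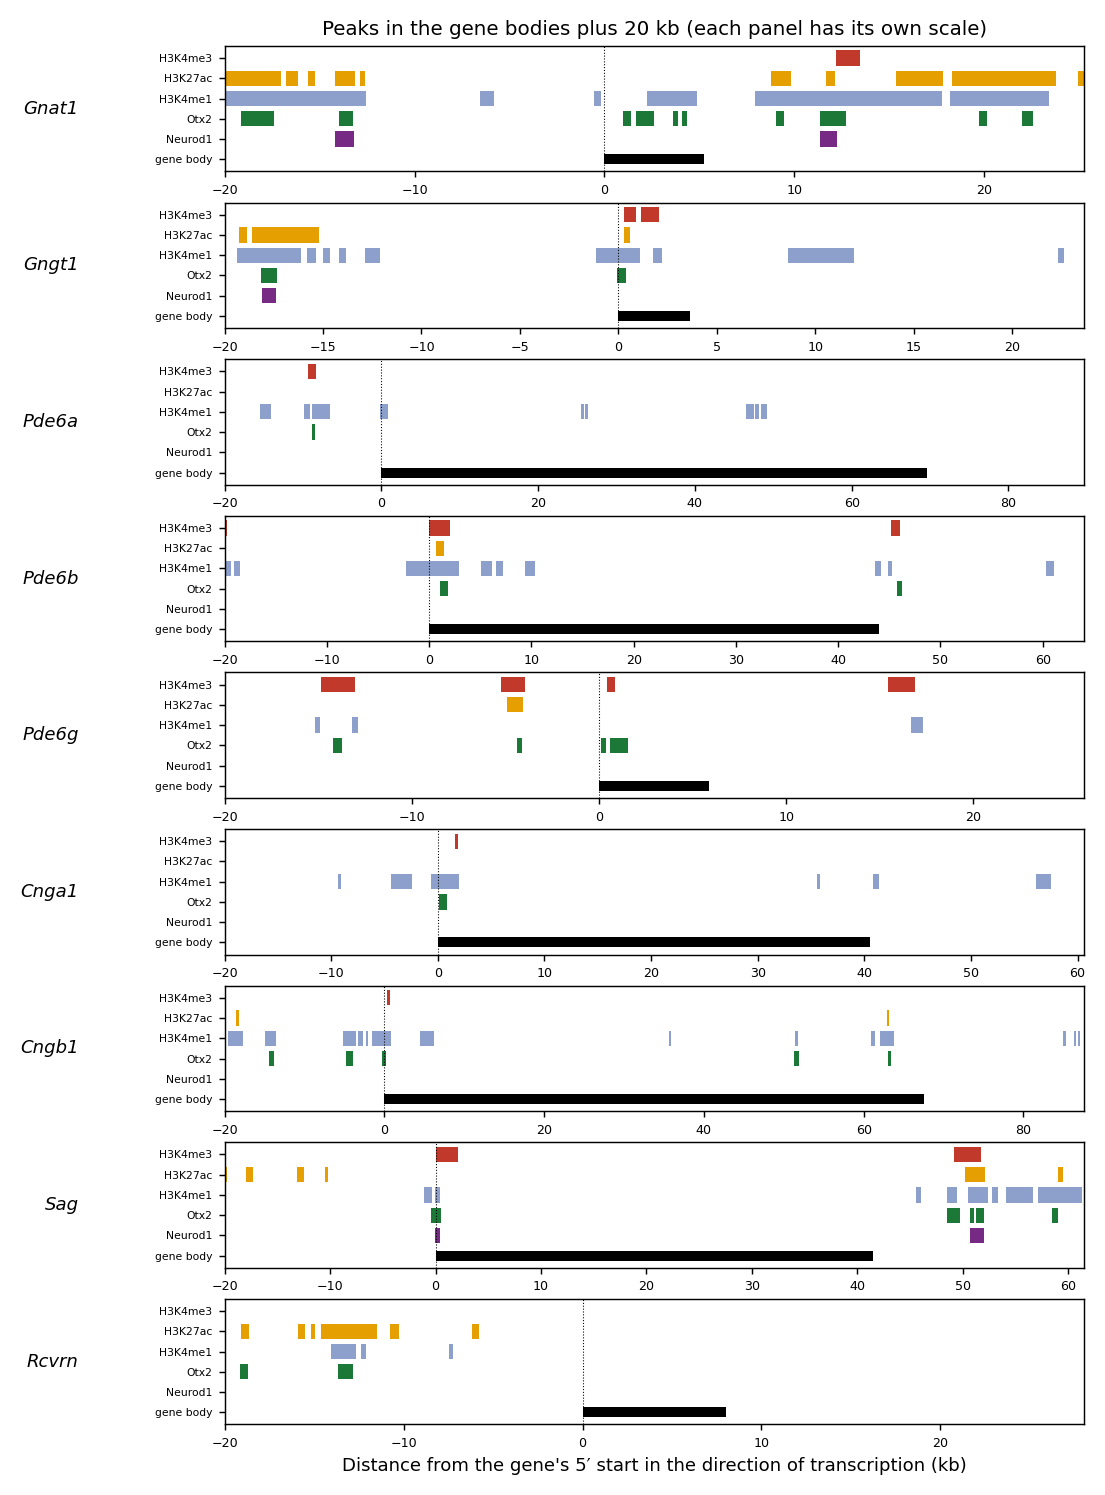
Peaks of the 5 targets (colored bars, 1 row per target) and the gene body (black) in each gene's window, by distance from the 5′ start in kb in the direction of transcription, with a separate scale for each gene. Otx2 bars without an H3K27ac bar above them cluster at the dotted line of *Cnga1*, *Cngb1*, *Sag*, and *Pde6g* and just inside *Gnat1*, and *Rcvrn* has bars only upstream.

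The Otx2 peaks divided by position. Of the 10 within 1 kb of a TSS of a rod gene, 1 overlapped H3K27ac, that of *Gngt1*, where 29.9% of Otx2 peaks at any protein-coding TSS did. The 10 peaks are not independent, since *Gnat1* gave 4 of them and *Pde6g* gave 2. Among the 9 that did not, 5 overlapped H3K4me1 alone, 2 overlapped H3K4me3 and 2 had no mark. Of the 22 elsewhere in the windows, 15 overlapped H3K27ac. These were, first, 7 of the 13 at the start of another gene, beside the same 29.9% of Otx2 peaks at any protein-coding TSS. The rest were 8 of the 9 over 1 kb from any protein-coding TSS, where 40.8% of all such Otx2 peaks did. The 9 are not independent either, since several lay in the *Sag* window. Those of 2.51- and 4.0-fold there overlapped the same H3K27ac peak. Another of the 9 was the intronic *Pde6b* peak, only 1042 bp from the protein-coding start. Over all windows 16 of 32 Otx2 peaks overlapped H3K27ac, against 36.2% of the Otx2 list. This share came near that of the list with 10 kb flanks (36.4%), a −log10 q of at least 5 (35.0%), or equal numbers of peaks (37.5%). It was 51.9% at a fold of at least 2.5, 47.4% without peaks at other genes' starts, and 40.6% with summits inside the H3K27ac peak. In the gene bodies alone it fell below that of the list, to 23.1% of 13 Otx2 peaks. For Neurod1, 4 of 5 peaks overlapped H3K27ac, against 52.3% of the list, and the exception was the *Sag* start.

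**Figure D4:**
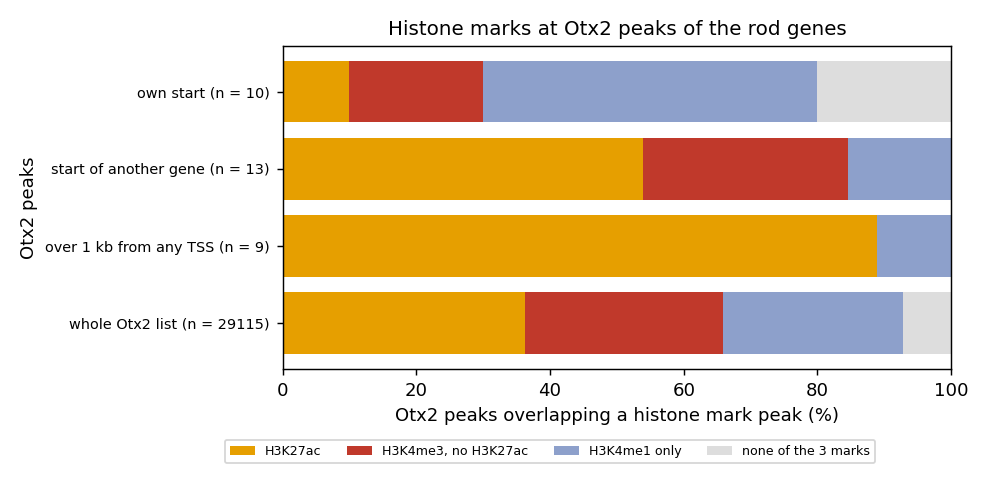
Share of Otx2 peaks (x axis, percent) that overlap H3K27ac, H3K4me3 without H3K27ac, H3K4me1 alone, or none of these, for the rod genes' peaks by position and for the whole Otx2 list. The H3K27ac share is 10.0% at the genes' own starts, 53.8% at starts of other genes and 88.9% over 1 kb from any TSS. Over all Otx2 peaks, and not drawn, it is 29.9% within 1 kb of a protein-coding TSS and 40.8% farther away. Several peaks of each bar came from the same gene's window, so they are not independent.

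The strongest acetylated site with both factors lay 17.8 kb upstream of *Gngt1*, in an intron of *Tfpi2*. Otx2 reached 10.8-fold there (chr6:3975633-3976443, −log10 q 42.9), a fold that 2.01% of Otx2 peaks had, and Neurod1 8.14-fold (chr6:3975665-3976391, −log10 q 25.7), with summits 81 bp apart. H3K27ac was at 6.99-fold and H3K4me1 at 17.5-fold, each the highest of its target in the *Gngt1* window. No protein-coding TSS was within 1 kb. Which gene this site acts on was not measured.

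The 300 bases midway between these summits, chr6:3975892-3976191 on the plus strand, are shown because Otx2 and Neurod1 overlapped there away from any start, with H3K27ac. Capitals mark CATCTG, which is CAGATG on the other strand and lies 67 bp from the Neurod1 summit, and no TAATCC occurs in these bases.
Gngt1 distal site: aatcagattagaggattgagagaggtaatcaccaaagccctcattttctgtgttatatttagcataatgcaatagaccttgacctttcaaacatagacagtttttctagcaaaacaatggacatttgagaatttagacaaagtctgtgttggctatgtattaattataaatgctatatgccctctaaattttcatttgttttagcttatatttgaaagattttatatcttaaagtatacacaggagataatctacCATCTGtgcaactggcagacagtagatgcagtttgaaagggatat

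The highest Otx2 fold in any of the windows was 18.4 kb upstream of *Gnat1*, in an intron of *Sema3f* (chr9:107697116-107698873). It was 14.0-fold with a −log10 q of 138, a fold that 0.714% of Otx2 peaks had, and it overlapped H3K27ac and H3K4me1. The *Gnat1* window held 10 H3K27ac peaks, the most of the 9, and its highest, of 12.6-fold over 5461 bp in *Slc38a3*, was matched by 0.138% of H3K27ac peaks. Its pair of Neurod1 peaks, of 5.50- and 2.76-fold, lay within 1 kb of starts of *Slc38a3* and *Sema3f*. Between these acetylated neighbors the *Gnat1* gene body had Otx2 and H3K4me1 only.

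Downstream of *Sag*, 4 Otx2 peaks of 2.51- to 4.0-fold and a Neurod1 peak of 4.09-fold lay 49.4 to 58.5 kb from its start, at the start and in the introns of *Dgkd*, and 3 of these Otx2 peaks and the Neurod1 peak overlapped H3K27ac. Upstream of *Rcvrn*, Otx2 peaks of 5.11- and 3.01-fold at 13.1 and 19.1 kb both overlapped H3K27ac and lay where *Gas7* and *Glp2r* overlap, the stronger at a start of *Gas7*. In *Cngb1*, Otx2 peaks of 3.93- and 2.06-fold lay in introns at 51.4 and 63.4 kb, of which the weaker overlapped H3K27ac, and 2 more, of 5.2- and 2.52-fold, lay at starts of *Tepp*. The second Otx2 peak of the *Pde6b* window, of 4.35-fold, was at the start of *Atp5k*, and those of *Pde6g* outside its start, of 3.02- and 1.80-fold, were at the starts of *Ccdc137*, *Oxld1*, *Arl16*, and *Hgs*.

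Other genes of the rod cascade were described in the same way. These 12 encode the transducin β-subunit, regulators of transducin, the pigment kinase, and proteins of cyclic GMP synthesis and calcium balance. Of the 12, 10 had Otx2 at a start, none had Neurod1, 4 had H3K27ac, and 6 had Otx2 without H3K27ac. The shares of all genes, given above, were 51.0%, 5.76%, 22.6%, and 30.8%. The 6 were *Grk1* (the pigment kinase, Otx2 at 4.80-fold), *Rgs9* (which speeds transducin shut-off, 5.39-fold), *Rgs9bp* (its membrane anchor, 7.39-fold), *Guca1a* (a guanylate cyclase activator, 3.04-fold), *Gucy2e* (5.84-fold), and *Gucy2f* (3.53-fold), both guanylate cyclases. The 4 with Otx2 and H3K27ac were *Gnb1* (the transducin β-subunit, 5.22-fold), *Gnb5* (the β-subunit that pairs with *Rgs9*, 2.21-fold), *Pdc* (phosducin, 4.28-fold), and *Unc119* (a transducin chaperone, 9.22-fold), of which *Gnb1*, at least, is expressed in most tissues. The median H3K4me3 fold of the 7 genes that had it was 16.2, above that of the 9 genes described here and near that of all genes.

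The cone counterparts of these proteins had Otx2 at 5 of 10 starts, Neurod1 at 2, H3K27ac at 2, and a factor without H3K27ac at 3. The counts for Otx2, H3K27ac, and a factor without H3K27ac lie at the shares of all genes (51.0%, 22.6%, and 30.8%), and that for Neurod1 stands beside 5.76%. *Gnb3*, the cone transducin β-subunit, had the highest folds of either factor at a start in any of the 3 lists, 26.2 for Otx2 and 17.6 for Neurod1, with H3K27ac at 2.95-fold. *Gngt2*, the cone transducin γ-subunit, had Otx2 at 5.30-fold and Neurod1 at 4.14-fold without H3K27ac. *Gnat2* (9.74-fold) and *Cnga3* (5.60-fold) had Otx2 without H3K27ac, and *Cngb3* had Otx2 at 7.37-fold with H3K27ac. H3K4me3 was as low as at the rod genes, at 2.79- to 5.90-fold in the 4 genes that had it.

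**Figure D5:**
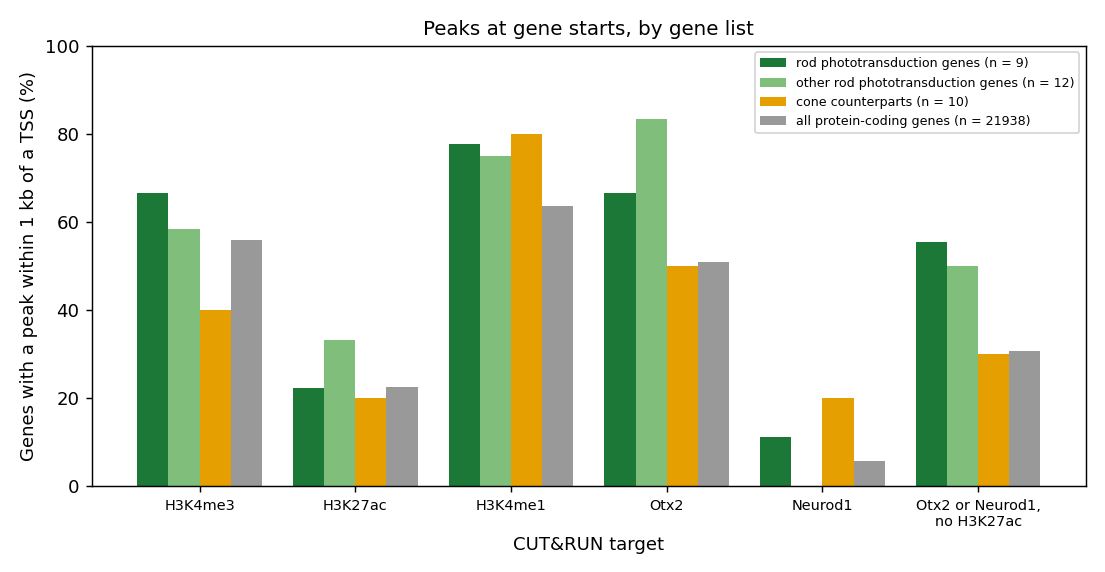
Percent of genes (y axis) with a peak within 1 kb of a TSS for each target and, at the right, with Otx2 or Neurod1 and no H3K27ac, for the 9 rod genes, 12 other rod phototransduction genes, 10 cone counterparts, and all 21938 protein-coding genes. The rod genes stand near the gray bars for H3K27ac and above them for a factor without H3K27ac (5 of 9 against 30.8%). This gap rests on few genes and was not tested, and the 12 other rod genes stand above the gray bar there too (6 of 12).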

How the data were processed

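CUT&RUN peak lists of P2 mouse retina were used, 1 per target, and those of the ground squirrel were not used here. Per the submitters' notes and the paper's methods, the authors trimmed reads with cutadapt 3.5 and Trim Galore 0.6.4, aligned them to GRCm38 with Bowtie2, filtered with SAMtools 1.12, removed duplicates by position, merged technical replicates and called peaks jointly across replicates against IgG with macs2 at a q-value of 0.05, leaving out blacklisted regions. The deposited lists give a fold enrichment, a ratio to IgG, and a −log10 q-value per peak, which were used unchanged. They hold no read totals, so depth is unknown.

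Peaks were matched to GENCODE M21 genes on chromosomes 1 to 19, X, and Y by an overlap of at least 1 bp, in Python 3.11.15 with pandas 2.3.3, numpy 2.4.6, pysam 0.24.0, and matplotlib 3.10.9. On simulated intervals the overlap code and bedtools 2.31.1 differed in 0 pairs. All 246656 peaks fitted GRCm38 chromosome lengths. Motifs were searched on both strands. No test was made, since lists pool their libraries.

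The members and lists were chosen with earlier results of these data known. Named were all 9 genes with their peaks within 1 kb of a TSS, their factor peaks and their highest peak per target in the window, genes of the other lists with a factor peak at a start or in a count of 5 or fewer, and neighbors with a member's peak at their start. Host genes of distal peaks were named after their values were seen. Alternatives were other distances, −log10 q of at least 5, fold of at least 2.5, summits in place of overlaps, protein-coding transcripts only, leaving out peaks at other genes' starts, and equal numbers of peaks. The 250 bp motif distance was added after seeing the data. Some marker genes, and the blood marker list, are not reported here.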

Additional observations from a re-analysis of the deposited data

How the results depend on the processing

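No paired analysis was possible because each list pools its libraries, and for the same reason no replicate could be left out. Of 111 alternative values over 17 results, 92 stayed within 1.5 times the main value or, for a share, within its 95% Wilson interval, which covers counting error only. Genes with Otx2 or Neurod1 and no H3K27ac within 1 kb of a TSS were the same 5 under every alternative except equal numbers of peaks, where *Gngt1* joined them and made 6.

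Genes with H3K27ac within 1 kb of a TSS, 2 as reported, numbered 1 with a limit of 500 bp, a −log10 q limit of 5, summits inside the limit, or equal numbers of peaks. Genes with H3K4me3 there fell from 6 to 3 at a −log10 q limit of 5, and those with H3K4me1 from 7 to 1 with equal numbers of peaks. In the gene body alone, a narrower search, genes with H3K27ac numbered 3 and with Neurod1 1, Otx2 peaks 13 with 23.1% of them on H3K27ac, and Neurod1 peaks 1 with 0% on H3K27ac. Without peaks at other genes' starts, Otx2 peaks numbered 19 and Neurod1 peaks 3. Neurod1 peaks numbered 3 with 10 kb flanks, and Otx2 peaks 20 once a −log10 q limit of 5 was set. TAATCC near Otx2 summits in the windows stood at 9 peaks within 150 bp, 0 within 50 bp, and 14 within 250 bp, the last distance chosen after seeing the data, and CAGATG near Neurod1 summits at 3, 0, and 3 peaks. Genes with a factor and no H3K27ac in the window, 2 as reported, numbered 4 in the gene body alone. Depth is unknown, so a missing peak shows only that none passed the authors' threshold.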

Other observations

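Over the whole lists, motif letters were more frequent beside factor summits than at them. Per 1000 Otx2 peaks there were 26.1 matches to TAATCC at less than 50 bp from the summit, 114 at 100 to 150 bp, 97.7 at 150 to 200 bp, and 36.4 at 350 to 400 bp. Per 1000 Neurod1 peaks there were 107 matches to CAGATG at less than 50 bp, 348 at 100 to 150 bp, and 90.9 at 350 to 400 bp. Matches were thus most frequent at 100 to 150 bp from the summits of both factors, and the cause of this was not tested.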
